A study of Homo sapiens with 6 samples.

Results

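The 39 human HOX genes, every row of the deposited table whose symbol is HOXA, HOXB, HOXC or HOXD followed by a number, were compared between IMR90 cells infected with the empty vector and IMR90 cells infected to express ARID1B from a cDNA. They are 39 of the 57232 genes in the table. The rule uses symbols only and no measured value, and it leaves out the antisense RNAs of the clusters. IMR90 is a strain of human fetal lung fibroblasts that is widely used to study senescence. ARID1B is a DNA-binding subunit of the BAF form of the SWI/SNF chromatin remodeling complex, and the study asked what its overexpression does to these cells. Both groups were at passage 13, were infected on the same schedule, were selected with puromycin until day 4 for stable integration and were collected on day 6 after infection. Each group had 3 libraries, vector replicates 1 to 3 and ARID1B replicates 1 to 3, which the study treats as biological replicates. The control cells therefore share the infection and the drug with the ARID1B cells, and all 6 libraries come from 1 cell strain.

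HOX genes encode homeodomain transcription factors that set position along the body axis. They lie in the clusters HOXA, HOXB, HOXC and HOXD, and genes of different clusters that descend from the same ancestral gene form a paralog group. Low paralog groups lie at the 3′ end of a cluster and are expressed toward the head, high groups lie at the 5′ end and are expressed toward the tail and the distal limb. Adult and fetal fibroblasts keep a HOX pattern that reflects their site of origin, and in lung mesenchyme HOXA5, HOXB2 to HOXB6 and their neighbours are known to be active. HOX proteins bind DNA with cofactors of the TALE class (PBX, MEIS and PKNOX). Retinoic acid activates the 3′ genes, Trithorax proteins maintain active clusters and Polycomb proteins keep clusters silent.

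The promoters of HOXA2, HOXA7 and HOXD4 are shown as examples from genes at different levels, without a claim that sequence and level are tied. HOXA2 and HOXA7 belong to the HOXA genes that differed most between libraries of the same group, and HOXD4 is a gene of a low paralog group that was listed at 0 in every library. Each sequence covers 250 bases before to 50 bases after a start of transcription in RefSeq (GRCh38.p14), 5′ to 3′ on the strand of the gene. Capitals mark matches, on either strand, to TGATNNAT (the composite site of HOX and PBX proteins), TGACAG (the site of MEIS and PKNOX proteins) or CCAAT (the box bound by NF-Y).
HOXA2: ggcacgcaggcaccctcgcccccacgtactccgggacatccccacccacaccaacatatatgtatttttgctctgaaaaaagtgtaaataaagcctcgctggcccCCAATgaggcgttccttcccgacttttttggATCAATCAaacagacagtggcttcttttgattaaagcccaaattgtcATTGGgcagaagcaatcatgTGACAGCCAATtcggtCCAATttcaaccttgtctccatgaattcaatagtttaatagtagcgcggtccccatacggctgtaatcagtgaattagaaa
HOXA7: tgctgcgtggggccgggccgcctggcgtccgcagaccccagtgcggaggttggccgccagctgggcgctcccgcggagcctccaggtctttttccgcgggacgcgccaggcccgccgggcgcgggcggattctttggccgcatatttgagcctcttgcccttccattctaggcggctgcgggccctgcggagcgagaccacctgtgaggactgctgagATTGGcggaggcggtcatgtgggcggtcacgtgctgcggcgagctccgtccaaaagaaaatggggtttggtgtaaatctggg
HOXD4: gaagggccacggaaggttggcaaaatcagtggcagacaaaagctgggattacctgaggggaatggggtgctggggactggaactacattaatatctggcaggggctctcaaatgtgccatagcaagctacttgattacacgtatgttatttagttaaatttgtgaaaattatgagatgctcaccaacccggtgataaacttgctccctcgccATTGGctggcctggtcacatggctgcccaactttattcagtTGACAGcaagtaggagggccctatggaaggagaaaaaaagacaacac
The HOXA2 promoter lies at chr7:27102634-27102933 on the minus strand, has 46.3% G and C, and held 1 TGATNNAT, 1 TGACAG and 4 CCAAT matches, with the TGACAG directly followed by a CCAAT. The HOXA7 promoter lies at chr7:27156626-27156925 on the minus strand, has 68.0% G and C with 31 CG dinucleotides, and held 1 CCAAT. The HOXD4 promoter lies at chr2:176151300-176151599 on the plus strand, has 47.3% G and C with 4 CG dinucleotides, and held 1 TGACAG and 1 CCAAT. Of 35116 RefSeq promoters of the same length, 7.40% held TGATNNAT, 15.8% held TGACAG and 34.6% held CCAAT, and the median promoter had 58.7% G and C and 14 CG dinucleotides. The RefSeq table gave 27 promoters for 20 of the 39 HOX genes, and 3 of the 27 held TGATNNAT, 4 held TGACAG and 18 held CCAAT. A match of these letters is a description of the sequence and not a measured binding site.

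The values are FPKM as deposited by the authors, that is, fragment numbers divided by gene length and by the size of the library. Library totals recovered from the steps of low values lay between 63386813 and 91924514 reads or fragments. The targeted gene, ARID1B (ENSG00000049618), had 2.29, 1.31 and 2.05 FPKM in the vector libraries in the order of their numbers, against 32.5, 21.0 and 28.3 FPKM where the cDNA was added, so each library followed its label. One library differed from the rest: on a first principal component over all genes tested, with 63.8% of the variance, vector replicate 2 scored 48.5 and the others -20.0 to 3.63. Results are therefore also given without it. Replicate 3 lay between replicates 1 and 2 of its group for 85.0% of all genes tested in the vector libraries and for 69.2% in the ARID1B libraries, and for 10 and 7 of the 12 HOX genes tested. Whether replicate 3 is independent of the others was not tested, and every SD, n of 3 and limma p here treats it as such. Fibroblast markers were all expressed, with 10 of 10 above the limit for testing and a summed level of 1958 to 2661 FPKM with the vector and 1925 to 2693 FPKM with ARID1B. Of the 9 epithelial markers, CDH1, NKX2-1, KRT5, KRT14, SFTPB and SFTPC were at 0.00490 FPKM or less in every library, EPCAM lay between 0.158 and 0.255 FPKM, and KRT18 and KRT8 were tested. Of 4 endothelial markers CDH5 was listed at 0, but their sum was 0.883 to 3.66 FPKM with the vector and 1.82 to 3.63 FPKM with ARID1B, mostly from TEK at 0.802 to 3.48 FPKM, and the 5 blood markers summed to 0.0597 FPKM or less. The epithelial markers summed to 6.46 to 9.57 FPKM with the vector and to 9.27 to 14.5 FPKM with ARID1B, nearly all from KRT18 and KRT8, the 4 smooth muscle markers to 59.1 to 95.4 and 75.3 to 144 FPKM, and the 5 lung mesenchyme markers to 78.8 to 110 and 73.5 to 86.0 FPKM. Their part in the HOX values was not tested, and in bulk RNA fewer cells that express a gene and less RNA per cell cannot be told apart.

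The HOX genes that averaged 1 FPKM or more all lay in low and middle paralog groups of HOXA, HOXB and HOXC. Of the 39 HOX genes, 12 averaged 1 FPKM or more over all libraries, the limit for testing, 14 lay under it with at least 1 read and 13 were listed at 0 in all 6 libraries. The 12 were 4 of 11 HOXA genes, 7 of 10 HOXB genes, 1 of 9 HOXC genes and 0 of 9 HOXD genes. In the table as a whole, 18.2% of genes reached this limit. All 12 belonged to paralog groups 1 to 8, which hold 23 of the genes. None of the 16 genes of paralog groups 9 to 13 reached it, and the highest value among them was 0.233 FPKM, for HOXC9 in vector replicate 2.

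**Figure D1:**
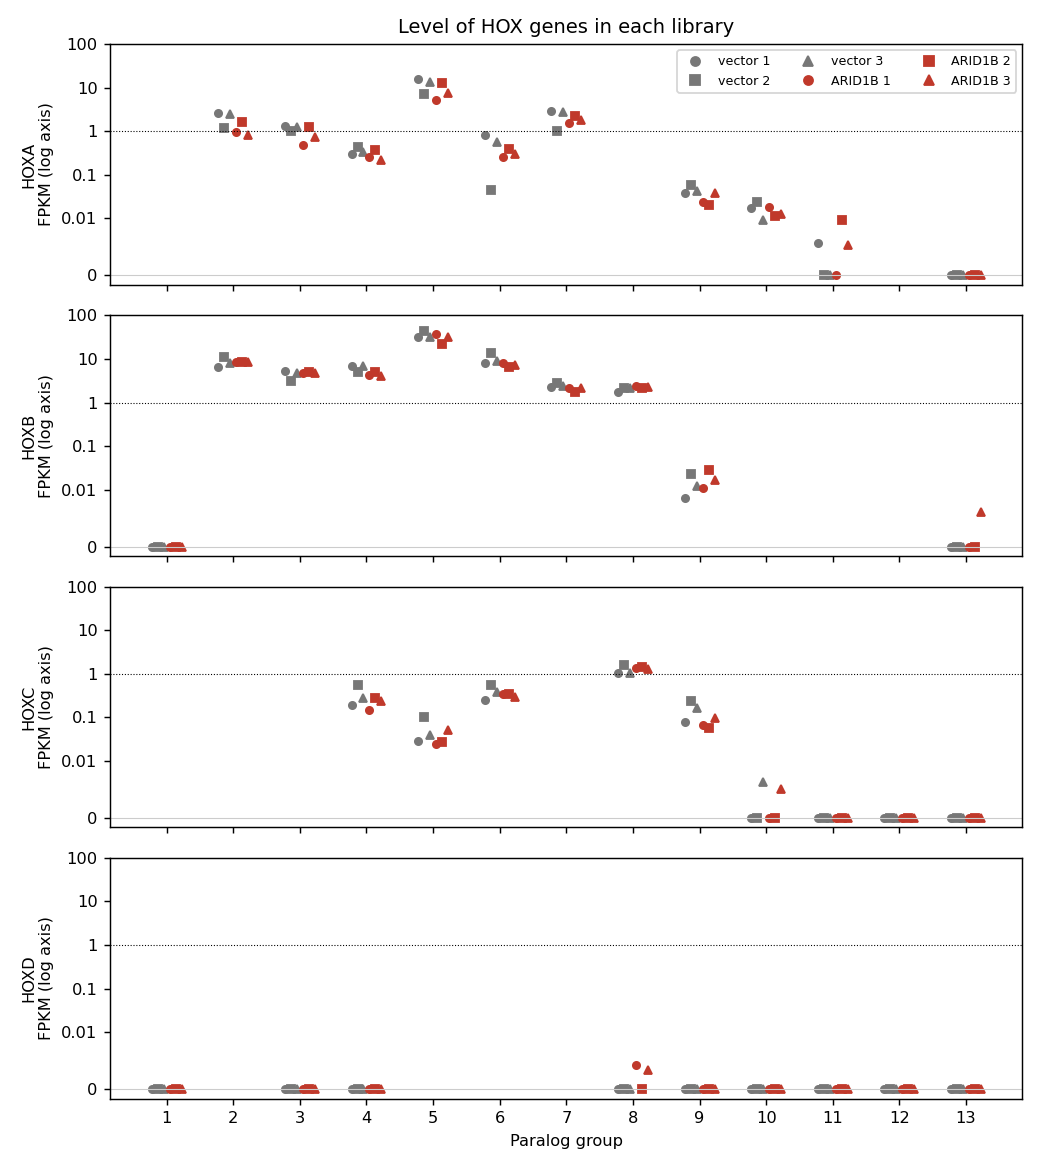
FPKM (log axis, with 0 drawn on the bottom line) of the HOX genes reported here by paralog group, in a panel for each cluster, for 3 vector libraries (gray) and 3 ARID1B libraries (red). Positions with no points hold no gene or none reported here, the dotted line marks 1 FPKM, and genes of paralog groups 9 to 13 lie at 0.233 FPKM or less in every library.

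The HOXD cluster gave almost no reads. Its only reads were 2 for HOXD8, 1 in ARID1B replicate 1 and 1 in ARID1B replicate 3, and the summed level of its 9 genes was at most 0.00183 FPKM. HOXD1, HOXD3, HOXD4, HOXD9, HOXD10, HOXD11, HOXD12 and HOXD13 were listed at 0 in all libraries, as were HOXA13, HOXB1, HOXC11, HOXC12 and HOXC13. A count of 0 allows up to 3 reads in a library, which for HOXD4 is 0.0323 FPKM in the library with the lowest total and for HOXA13, the longest of the 13, is 0.00931 FPKM, over exonic lengths of GENCODE v29. This covers counting error only. In GENCODE v29, 80.5% of the HOXD4 exonic bases and 62.2% of those of HOXD3 are also exonic in another entry on the same strand. For HOXD1, 58.1% are also exonic on the opposite strand. Whether reads of such bases were left uncounted was not tested, so the limit for HOXD4 may be too low. Of 10 housekeeping genes checked, 0 were at 0 in any library. The noncoding RNAs known for 5′ HOX regions were near or at 0 as well, with HOTTIP at 0 throughout and HOTAIR at 0 in 5 libraries and 0.00804 FPKM in ARID1B replicate 3. The 6 microRNA genes of the clusters in the table, of the miR-10, miR-196 and miR-615 families, were listed at 0, and the libraries were made from mRNA.

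HOXB5, a regulator of lung branching and of the neural crest, had the highest level of the family. Its FPKM was 31.5, 42.5 and 32.3 in vector replicates 1, 2 and 3 and 36.3, 22.1 and 32.4 in ARID1B replicates 1, 2 and 3, which was 30.6% to 46.7% of the summed FPKM of all HOX genes. HOXA5, which is required for lung development, came next with a mean level of 10.3 FPKM over the 6 libraries, followed by HOXB6 at 8.69, HOXB2 at 8.60, HOXB4 at 5.29 and HOXB3 at 4.60 FPKM. HOXB7 (2.25 FPKM), HOXB8 (2.16), HOXA7 (2.02), HOXA2 (1.63), HOXC8 (1.29) and HOXA3 (1.01) made up the rest. Between neighbours in this order, the ranges over the 6 libraries were separate only for HOXB5 above HOXA5 and for HOXB3 above HOXB7, and the other neighbours overlapped. The order depends on the gene length used by the authors. The length that makes the values whole reads was 7050 bases for HOXB7, against 1528 exonic bases in GENCODE v29, and 17519 bases for HOXB3, against 7456. Per GENCODE v29 base, HOXB7 would stand at 10.4 FPKM and HOXB3 at 10.8 FPKM, HOXB6 at 19.8 and HOXB2 at 16.1 FPKM would pass HOXA5, and HOXB5 would remain first at 32.8 FPKM.

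HOXB genes carried most of the family's signal. Their summed level was 62.2, 80.3 and 65.3 FPKM in the vector replicates and 66.5, 51.0 and 61.5 FPKM in the ARID1B replicates, 70.6% to 85.6% of all HOX FPKM. HOXA genes summed to 23.9, 11.2 and 21.7 FPKM with the vector and to 9.25, 19.1 and 11.8 FPKM with ARID1B, and HOXC genes to between 1.58 and 3.04 FPKM. The HOXA share was 27.2%, 11.9% and 24.4% in the vector replicates and 11.9%, 26.4% and 15.6% in the ARID1B replicates. Vector replicate 2 thus had the low HOXA share of ARID1B replicate 1, and ARID1B replicate 2 had the high share of vector replicates 1 and 3. All HOX genes together summed to 87.7, 94.5 and 88.9 FPKM with the vector and to 77.6, 72.2 and 75.3 FPKM with ARID1B, 90.4 ± 3.65 (SD, n = 3) against 75.0 ± 2.73 FPKM (SD, n = 3), and the ranges of the groups did not overlap. This sum is a description, since HOXB5 alone makes up a large share of it and the members were chosen with earlier results of these data known. Of single genes tested, 11.1% were lower with ARID1B without overlap. The part of base composition in the sum was not tested.

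With ARID1B, none of the 12 HOX genes tested passed the threshold of an adjusted p of 0.05 from limma, with Benjamini-Hochberg adjustment over all 10416 genes tested (background 0.0288% in either direction, 3 genes, which were all higher). Log2 changes, on the scale of log2(FPKM + 1), ran from -0.54 for HOXA2 to 0.15 for HOXB8. A negative change was seen for 8 of the 12, against 52.4% of all genes, and the median change was -0.23 against -0.015 over all genes. At an unadjusted p under 0.05 limma gave 1 HOX gene, HOXB4, against 10.6% of all genes (5.94% lower and 4.64% higher). The groups did not overlap for 1 gene that was lower with ARID1B, HOXB7 (background 11.1%), and for 1 that was higher, HOXB8 (background 9.44%, and 20.5% in either direction). The counts of genes past either p and of groups without overlap lay near or under the background of the whole table. The scale of log2(FPKM + 1) understates the change of genes near 1 FPKM, which many of these are.

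**Figure D2:**
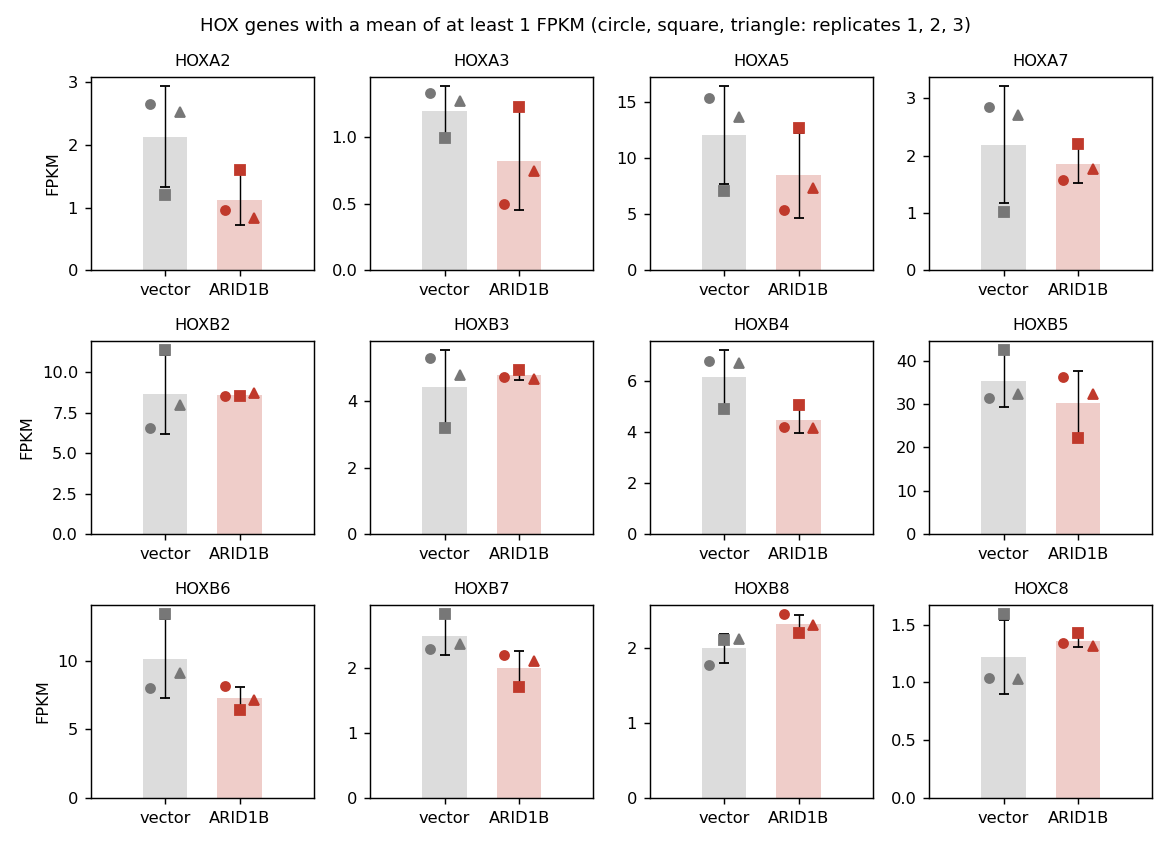
FPKM (linear axes) of the 12 HOX genes tested in each vector library (gray) and ARID1B library (red), with bars for the mean and whiskers for the SD of 3 libraries. The square of replicate 2 is the lowest vector point and the highest ARID1B point for HOXA2, HOXA3, HOXA5 and HOXA7, and only HOXB7 and HOXB8 have groups that do not overlap.

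The 4 HOXA genes tested had lower means with ARID1B, and in each of them replicate 2 was the vector library with the lowest value and the ARID1B library with the highest. HOXA2 (ENSG00000105996), which patterns the hindbrain and the second pharyngeal arch, had 2.66, 1.20 and 2.53 FPKM in vector replicates 1, 2 and 3 and 0.954, 1.59 and 0.827 FPKM in ARID1B replicates 1, 2 and 3. The groups overlapped through both replicates 2, and the log2 change was -0.54 (standard error 0.238, 95% interval -1.11 to 0.03, adjusted p = 0.493 from limma). HOXA5 (ENSG00000106004) had 15.4, 7.10 and 13.7 FPKM with the vector and 5.33, 12.7 and 7.37 FPKM with ARID1B. Replicate 2 had the same place in each group as for HOXA2, but the lowest ARID1B library was replicate 1 and not replicate 3. The change of -0.48 had a 95% interval of -1.37 to 0.42 (adjusted p = 0.686 from limma). HOXA3 (ENSG00000105997), which patterns the third pharyngeal arch and the thymus, had 1.33, 0.991 and 1.27 FPKM with the vector and 0.494, 1.23 and 0.749 FPKM with ARID1B. Its groups overlapped in the same way, with a change of -0.29 and a 95% interval of -0.68 to 0.11 (adjusted p = 0.590 from limma). HOXA7 (ENSG00000122592), a trunk patterning gene, had 2.84, 1.02 and 2.72 FPKM with the vector and 1.57, 2.21 and 1.77 FPKM with ARID1B, so vector replicate 2 lay under every ARID1B library. Its change was -0.11 (95% interval -0.75 to 0.52, adjusted p = 0.882 from limma), and its direction turned to 0.025 with a correction for GC content and length. In GENCODE v29, 62.5% of the HOXA7 exonic bases are also exonic in genes on the opposite strand, and since the strand setting of the counting is not stated, reads of HOXA7 and of its antisense partner cannot be told apart.

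Among the 7 HOXB genes tested, 4 had negative and 3 positive changes. HOXB4 (ENSG00000182742), known for expanding blood stem cells, had 6.78, 4.90 and 6.70 FPKM with the vector and 4.17, 5.07 and 4.14 FPKM with ARID1B. Its groups overlapped through both replicates 2, and its log2 change of -0.38 (standard error 0.150, 95% interval -0.74 to -0.02) had an unadjusted p of 0.0434 and an adjusted p of 0.459 from limma. GENCODE v29 shares 17.1% of the HOXB4 exonic bases with other genes on the same strand. HOXB7 (ENSG00000260027), a trunk gene often raised in tumors, had 2.29, 2.83 and 2.37 FPKM with the vector and 2.20, 1.71 and 2.11 FPKM with ARID1B. Every ARID1B library was under every vector library, by as little as the step from 2.29 to 2.20, and the change was -0.22 (95% interval -0.50 to 0.06, adjusted p = 0.559 from limma). HOXB8 (ENSG00000120068), which takes part in myeloid and spinal cord development, had 1.77, 2.10 and 2.12 FPKM with the vector and 2.46, 2.21 and 2.32 FPKM with ARID1B. Every ARID1B library was above every vector library, with a change of 0.15 (95% interval -0.08 to 0.38, adjusted p = 0.631 from limma). HOXB8 also varied least of the 12 genes, with a highest library at 1.38 times the lowest, against 3.22 times for HOXA2.

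HOXB5 (ENSG00000120075) and HOXB6 (ENSG00000108511), neighbours in the middle of the cluster, had the reverse order of libraries from the HOXA genes, with replicate 2 as the highest vector and the lowest ARID1B library. The values of HOXB6 were 7.97, 13.4 and 9.07 FPKM with the vector and 8.14, 6.43 and 7.15 FPKM with ARID1B. The groups overlapped only by vector replicate 1 lying under ARID1B replicate 1, and the change was -0.41 (95% interval -0.89 to 0.07, adjusted p = 0.528 from limma). HOXB5, with the values given above, had a change of -0.24 (95% interval -0.77 to 0.29, adjusted p = 0.726 from limma). HOXB2 (ENSG00000173917), a hindbrain gene, had 6.56, 11.3 and 7.95 FPKM with the vector and 8.50, 8.50 and 8.71 FPKM with ARID1B. The ARID1B libraries lay within the vector range and close together, and the change was 0.023 (95% interval -0.43 to 0.48, adjusted p = 0.971 from limma). HOXB3 (ENSG00000120093), which shares exons with its neighbours, had 5.31, 3.19 and 4.78 FPKM with the vector and 4.71, 4.94 and 4.66 FPKM with ARID1B, again inside the vector range, with a change of 0.11 (95% interval -0.30 to 0.52, adjusted p = 0.819 from limma). HOXC8 (ENSG00000037965), a thoracic gene and the 1 HOXC gene tested, had 1.04, 1.59 and 1.03 FPKM with the vector and 1.34, 1.43 and 1.32 FPKM with ARID1B. Vector replicate 2 was its highest library and the other vector libraries its lowest, and the change was 0.10 (95% interval -0.19 to 0.39, adjusted p = 0.782 from limma). For none of these genes does a p over the threshold show equal levels, and the intervals give the sizes that remain possible.

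**Figure D3:**
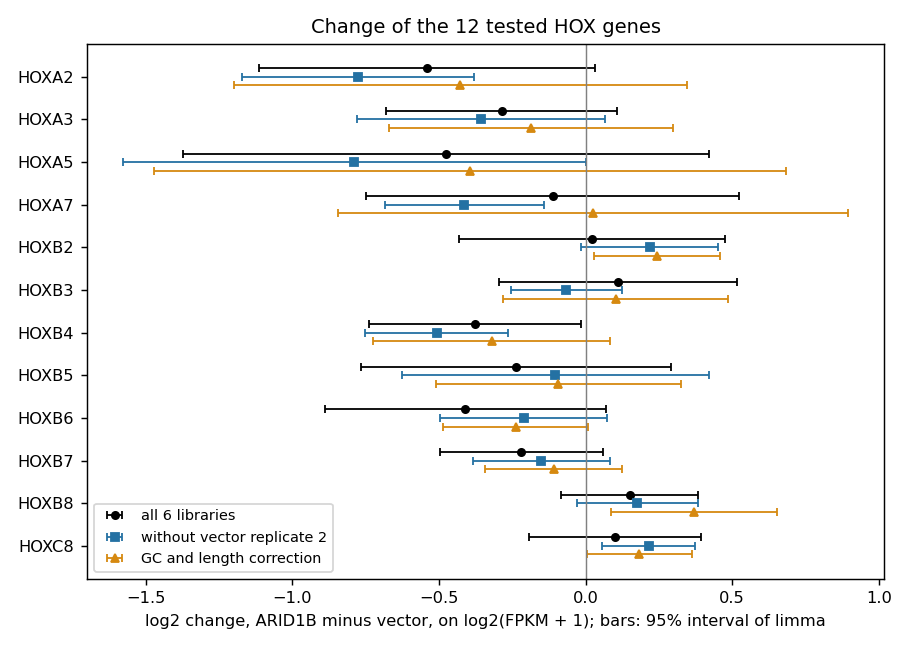
Log2 change (ARID1B minus vector, on log2(FPKM + 1)) of the 12 HOX genes tested, with the 95% interval of limma, from all 6 libraries (black circles), without vector replicate 2 (blue squares) and with a correction for GC content and length (orange triangles). HOXA7 lies at -0.11, -0.41 and 0.025 under these settings, and no gene passed an adjusted p of 0.05 in any of them.

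Replicate 2 was the highest or lowest library of both groups for 84.6% of all genes tested, and for 10 of the 12 HOX genes. Over the 22 HOX genes with 30 reads or more in sum, the level in vector replicate 2 was divided by the mean of vector replicates 1 and 3. The ratio was below 1 for 6 of 9 HOXA genes, with a median of 0.672, above 1 for 6 of 8 HOXB genes, with a median of 1.27, and above 1 for 5 of 5 HOXC genes, with a median of 1.90. Over all genes tested the median ratio was 1.01, and 49.5% lay below 1. The lowest ratio was that of HOXA6 at 0.0665, with 144, 9 and 76 reads in vector replicates 1, 2 and 3 and 40, 62 and 60 reads in ARID1B replicates 1, 2 and 3. HOXA6 stood at 0.824, 0.0458 and 0.552 FPKM with the vector, and had 0.263, 0.385 and 0.301 FPKM with ARID1B, under the limit for testing. In GENCODE v29, 39.3% of its exonic bases, and 16.3% of those of HOXB6, are also exonic on the opposite strand, with the same limit as for HOXA7. The highest was that of HOXC5 at 2.95, from 9, 36 and 10 reads with the vector. In GENCODE v29, 59.9% of its exonic bases are shared with other entries on its strand, among them another entry named HOXC5. In all 4 HOXA genes tested replicate 2 was the lowest vector and the highest ARID1B library, an order found in 21.9% of all genes tested, and this order also held for 2 of 7 HOXB genes, HOXB3 and HOXB4. In 3 of 7 HOXB genes replicate 2 was the highest vector and the lowest ARID1B library, found in 35.1% of all genes. Genes of a cluster are not independent, and these counts carry no test.

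**Figure D4:**
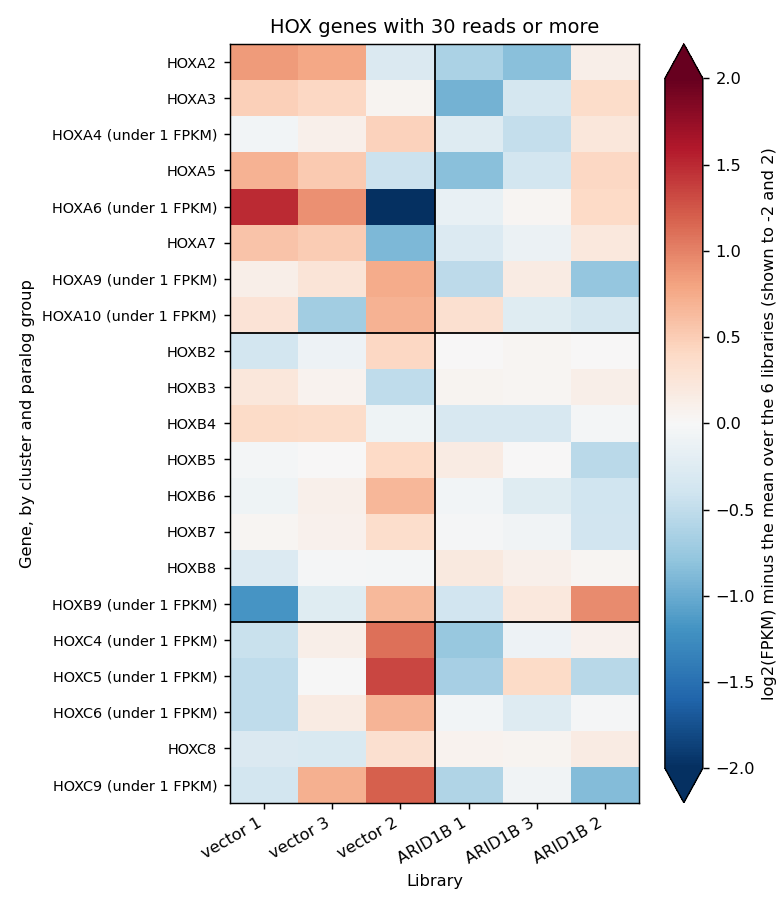
Deviation of log2(FPKM) from each gene's mean over the 6 libraries, for the HOX genes reported here with 30 reads or more, with replicate 2 drawn last in each group. Vector replicate 2 is blue in HOXA2, HOXA5, HOXA6 and HOXA7 and red in the 5 HOXC genes, and HOXA6 in vector replicate 2, at 0.0458 FPKM, is past the end of the color scale.

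Without vector replicate 2, the spread within the vector group was smaller and more genes of the table passed, 125 higher and 199 lower (background 3.11%), but 0 HOX genes did. The lowest adjusted p values from limma were 0.0605 for HOXB4 (log2 change -0.51), 0.0694 for HOXA2 (-0.78), 0.103 for HOXA7 (-0.41) and 0.125 for HOXC8 (0.22). An unadjusted p under 0.05 from limma was found for 5 of the 12 genes, against 23.7% of all genes. The 5 remaining libraries did not overlap between groups for 6 genes that were lower with ARID1B, HOXA2, HOXA3, HOXA5, HOXA7, HOXB4 and HOXB7 (background 23.9%), and for 3 that were higher, HOXB2, HOXB8 and HOXC8 (background 18.8%). HOXB3 turned from 0.11 to -0.066. The vector group then rests on replicates 1 and 3, which lay close together, and this setting was chosen because that library stands apart.

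HOX genes are rich in G and C, and over the whole table the change correlated with base composition. The 12 genes had 49.8% to 58.0% G and C, with a median of 54.2%, against 47.8% over all genes tested. Spearman's rho between change and GC content was -0.55 over 10195 genes, and between change and transcript length 0.40, where genes are not independent replicates. After a correction of each library for both, the median change of the HOX genes was -0.10, HOXB8 had a change of 0.37 (adjusted p = 0.432 from limma), HOXB2 one of 0.24 (adjusted p = 0.480) and HOXA2 one of -0.43 (adjusted p = 0.748 from limma). The unadjusted p of HOXB4 from limma was then over 0.05, and 3 HOX genes, HOXB2, HOXB8 and HOXC8, all higher, had one under it (background 4.79%). The part of base composition in the differences between HOXA and HOXB was not tested.

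HOX genes with 30 reads or more under the limit for testing had low levels in both groups. HOXA4 lay between 0.221 and 0.424 FPKM, HOXC4 between 0.152 and 0.549 FPKM and HOXC6 between 0.247 and 0.563 FPKM, and the highest value of all 3 was that of vector replicate 2. HOXC9 had 0.0793, 0.233 and 0.166 FPKM with the vector and 0.0674, 0.0562 and 0.0966 FPKM with ARID1B, from 15 to 76 reads. HOXA9 (8 to 28 reads), HOXA10 (4 to 15 reads), HOXB9 (2 to 8 reads) and HOXC5 (7 to 36 reads) rested on few reads in each library. HOXA11, HOXB13, HOXC10 and HOXD8 had under 10 reads in all 6 libraries together, 5, 1, 2 and 2.

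Of the 9 TALE cofactor genes, 8 were tested and 0 passed limma's threshold in either direction, with 1 at an unadjusted p under 0.05, MEIS3 (background 10.6%). Changes were negative for 6 of the 8, with a median of -0.14. MEIS3, a partner of the anterior HOX proteins, had 4.89, 5.30 and 5.09 FPKM with the vector and 3.55, 3.36 and 3.32 FPKM with ARID1B. Every ARID1B library lay under every vector library (background 11.1%), and the log2 change was -0.47 (adjusted p = 0.285 from limma). PBX2, the most expressed of the class, had 10.1, 7.67 and 9.83 FPKM with the vector and 7.02, 8.36 and 7.25 FPKM with ARID1B, with the groups overlapping (change -0.25, adjusted p = 0.578 from limma). MEIS1 overlapped as well, with 4.93, 3.66 and 4.72 FPKM against 2.79, 4.27 and 3.22 FPKM (change -0.30, adjusted p = 0.576 from limma). Both show the order of libraries seen in the HOXA genes, with replicate 2 lowest with the vector and highest with ARID1B.

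**Figure D5:**
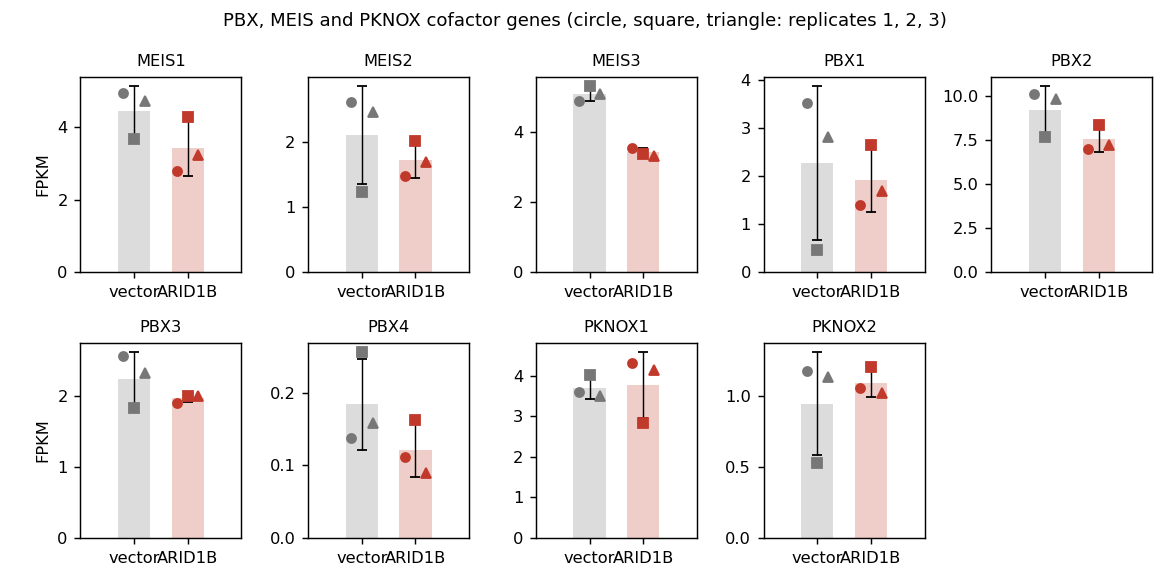
FPKM (linear axes) of the 9 TALE cofactor genes in each vector library (gray) and ARID1B library (red), with bars for the mean and whiskers for the SD of 3 libraries. MEIS3 is lower in each ARID1B library, at 3.32 to 3.55 FPKM, than in any vector library, at 4.89 to 5.30 FPKM, and the groups of the other genes overlap.

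Genes that make, carry and sense retinoic acid mostly had negative changes, without a call. Of these 15 genes, 8 were tested, 0 passed in either direction with limma, and 7 had negative changes with a median of -0.29. Among the lists of partners and regulators, only the noncoding RNAs, with 3 tested, had a lower median, -0.30. The groups did not overlap, all lower with ARID1B, for 4 of the 8 (background 11.1%), CRABP2, RARG and RXRB among them, and the same 4 had an unadjusted p under 0.05 (background 5.94% for lower). CRABP2, which carries retinoic acid to its nuclear receptors, had 16.8, 7.45 and 16.1 FPKM with the vector and 5.54, 5.66 and 5.27 FPKM with ARID1B (change -1.08, adjusted p = 0.322 from limma). Vector replicate 2 was much closer to the ARID1B libraries than the other vector libraries were. RARG, the gamma receptor, stood at 3.97, 3.66 and 4.19 FPKM against 2.34, 2.63 and 2.26 FPKM (change -0.54, adjusted p = 0.264 from limma). RXRB had 7.98, 8.52 and 8.37 FPKM against 6.85, 6.24 and 6.41 FPKM (change -0.31, adjusted p = 0.372 from limma), and RXRA, with overlapping groups, a change of -0.13 (adjusted p = 0.761). RARG and, below, MEIS2, CYP26A1, RARB, PCGF2, CBX8, CTCF and MEN1 were named after their values were seen. Without vector replicate 2, CRABP2 (-1.43, adjusted p = 0.0131), RARG (-0.58, adjusted p = 0.0372) and MEIS3 (-0.44, adjusted p = 0.0426) passed limma's threshold, against 3.11% of all genes. With GC content and length corrected for as well, CRABP2 (-1.38, adjusted p = 0.0190) and MEIS2 (-0.43, adjusted p = 0.0495) passed. In this setting 301 of 10195 genes passed. With the correction on all 6 libraries, 0 listed partners and regulators passed limma's threshold. CRABP2 then had a change of -0.86 (adjusted p = 0.601 from limma) and MEIS3 one of -0.22 (adjusted p = 0.648). RXRB had one of -0.14 (adjusted p = 0.719), while MEIS1 had one of -0.45 (adjusted p = 0.332 from limma). The retinoic acid degrading enzyme CYP26A1 and the receptor RARB, both direct targets of retinoic acid in many cells, stayed at 0.0128 FPKM or less and 0.103 FPKM or less. Other genes of this list, such as CRABP2, had higher levels, and whether retinoic acid acted on these cells was not tested.

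The Polycomb, Trithorax and other chromatin regulators of the HOX clusters summed to 125 to 128 FPKM with the vector and to 114 to 116 FPKM with ARID1B. Of 25 genes, 23 were tested, 0 passed limma's threshold, 1 had an unadjusted p under 0.05 (PCGF2, a Polycomb subunit, background 10.6%), and 16 had negative changes with a median of -0.06. The groups did not overlap for 5 of the 23, CBX8, CTCF, MEN1, PCGF2 and RING1, all lower with ARID1B (background 11.1%). RING1, the Polycomb ubiquitin ligase with the highest level, had 24.0, 28.0 and 24.2 FPKM against 21.7, 23.0 and 21.2 FPKM (change -0.20, adjusted p = 0.581 from limma). PHC2 had a change of -0.20 (adjusted p = 0.702) and CBX6 one of -0.19 (adjusted p = 0.677 from limma), with overlapping groups. The direction of RING1 turned to 0.079 once GC content and length were corrected for.

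Most noncoding RNAs of the clusters were at or near 0. Of 19, 12 were under 0.05 FPKM in every library, 7 of them at 0, 3 were tested, and 0 passed limma's threshold, with 0 at an unadjusted p under 0.05. HOTAIRM1, which lies at the 3′ end of the HOXA cluster on the opposite strand, had 2.01, 3.15 and 2.35 FPKM with the vector and 1.50, 2.57 and 1.50 FPKM with ARID1B (change -0.30, adjusted p = 0.629 from limma). Its highest vector library was replicate 2, the vector library in which HOXA2 was lowest. HOXB-AS1 had 1.11, 1.94 and 1.07 FPKM against 0.868, 0.669 and 0.937 FPKM (change -0.36, adjusted p = 0.495 from limma). It was the 1 of the 3 tested whose groups did not overlap (background 11.1% for lower). HOXB-AS3 had a change of -0.05 (adjusted p = 0.906 from limma). The genes that flank the clusters had a median change of 0.04 over 11 tested, 4 of them negative, and 0 passed limma's threshold, with 1 at an unadjusted p under 0.05, HNRNPA1 (background 10.6%). The groups did not overlap for 1 gene that was lower, HNRNPA1 (background 11.1%), and 1 that was higher, KIAA1715 (background 9.44%), named after its values were seen. HNRNPA1, a splicing factor gene beside HOXC, had 74.9, 83.0 and 77.8 FPKM against 59.9, 62.3 and 60.6 FPKM (change -0.36, adjusted p = 0.350 from limma). HIBADH beside HOXA (-0.07, adjusted p = 0.908) and ATP5G3 near HOXD (-0.05, adjusted p = 0.906 from limma) had overlapping groups. ATP5G3 stood at 17.0 to 23.7 FPKM, while the HOXD genes near it had almost no reads.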

How the data were processed

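RNA-seq libraries, 3 vector and 3 ARID1B, were grouped by their labels. The authors deposited FPKM values for 57232 genes. The submitters' processing notes give hg19 as the build and list HTSeq 0.5.3p9, TopHat2 2.0.11 and DESeq2, with no roles, and the strand setting is not given in the sources used here. Library totals were recovered from 1-read steps of single-transcript genes (GENCODE release 29), where 86.4% to 88.2% of low values were whole reads within 0.005. Totals and reads carry counting error only, at most 8.51% of the lowest value of a HOX gene tested. Genes averaging 1 FPKM or more (10416) were fitted with limma 3.58.1 (R 4.3.3, variance trend) on log2(FPKM + 1), and p-values were adjusted by Benjamini-Hochberg over all of them, with calls at 0.05. The fit was tested on simulated data, with independent noise and changes larger than that of any HOX gene here. The simulation held no outlying library and no shift with GC content, so it does not cover changes of the sizes reported. Scripts ran under Python 3.11.15. Members and lists were chosen with earlier results of these data known. Genes named were all HOX genes by level, and from each list those past the threshold and the 3 with the highest mean. No genome of the build used was at hand, so promoters are on GRCh38.p14. Exact permutation of 3 against 3 libraries cannot go below p = 0.1. PECAM1 was not analysed here. Some genes that enter the counts are not reported here. Alternatives were a pseudocount of 0.1, filters at 0 and at a mean of 5 FPKM, rescaling by median ratios, a fit with no variance trend, the replicate block, leaving out single libraries or both replicates 3, and a correction by splines (5 degrees of freedom) of GC content and length, for the 97.9% of genes with both. The correction for GC content and length without vector replicate 2 or with the block, and levels per GENCODE base, were added after seeing the data.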

Additional observations from a re-analysis of the deposited data

How the results depend on the processing

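No HOX gene passed limma's threshold under any alternative run. In the settings below where 0 genes of the whole table passed, ARID1B itself did not pass, so those settings say little about HOX genes. The median log2 change of the HOX genes tested, -0.23, was -0.27 with a pseudocount of 0.1, -0.38 over the 5 genes that average 5 FPKM or more, -0.10 with the correction for GC content and length, -0.17 with that correction and without vector replicate 2, and -0.26 to -0.17 with each library left out. The replicate numbers did not pair the libraries (correlations of deviations -0.46, -0.43 and -0.17 for replicates 1, 2 and 3), and with the replicate block 0 genes of the table passed against 3, the median was -0.23, and it was -0.10 with the block and the correction for GC content and length, where 0 genes passed. All genes past the threshold numbered 0 with no filter, 324 without vector replicate 2 and 0 without any of the other 5 libraries, 0 without both libraries numbered 3 and 301 with the correction and without vector replicate 2. HOX partners and regulators past it numbered 0 to 3 with each library left out, 3 without vector replicate 2 and 2 with the correction added. ARID1B kept its direction (log2 change 3.14 to 3.46 with each library left out) and lost its call in every setting where 0 genes of the table passed.

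The directions of 8 named genes turned under some alternative, RING1 and PHC2 from changes of -0.20. HOXA7 was 0.044 without both libraries numbered 3 and 0.025 after correcting GC content and length, with or without the replicate block, and ran from -0.41 to 0.050 with each library left out. HOXB2 was -0.025 without both libraries numbered 3 and ran from -0.14 to 0.22, and HOXB3 ran from -0.066 to 0.23. RING1 was 0.079 and HOXB-AS3 0.15 with the correction, with or without the block, and HIBADH was 0.019 without both libraries numbered 3. Without vector replicate 2 and with the correction, PHC2 was 0.058, HOXB-AS3 0.095, ATP5G3 0.048 and HOXB3 -0.068. With each library left out HOXB-AS3 ran from -0.13 to 0.067, ATP5G3 from -0.14 to 0.091 and HIBADH from -0.27 to 0.064. The cause was not tested. Of the HOX genes tested, HOXA2 at 138 reads in its lowest library was the shallowest.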
